A study of Rattus norvegicus with 24 samples.

Results

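The 8 immediate early genes Fos, Junb, Egr1, Egr2, Nr4a1, Arc, Dusp1 and Btg2 were followed in the medial prefrontal cortex of rat offspring. Birth had been induced with oxytocin, while saline was given as the control. The genes were chosen by their Ensembl gene IDs, listed with their symbols in the rule that defined the set. All 8 were found among the 32883 genes of each deposited table. The IDs are ENSRNOG00000008015 (Fos), ENSRNOG00000042838 (Junb), ENSRNOG00000019422 (Egr1), ENSRNOG00000000640 (Egr2), ENSRNOG00000007607 (Nr4a1), ENSRNOG00000043465 (Arc), ENSRNOG00000003977 (Dusp1) and ENSRNOG00000003300 (Btg2). The medial prefrontal cortex is the frontal region that takes part in executive control and social behaviour, and oxytocin is the peptide hormone given to start labour.

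Immediate early genes are transcribed within minutes of strong synaptic or growth factor input, without new protein synthesis. Calcium entry and kinase cascades act on factors already bound at their promoters, among them CREB at the cAMP response element (CRE) and serum response factor at the CArG box. Their transcripts are short-lived, so in brain tissue they are widely used as a record of neuronal activity shortly before death. Most encode transcription factors that act on later genes, and a few act directly at synapses or on the kinases that induced them.

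The animals were Sprague Dawley rats at postnatal day 45, and the 24 libraries fell by title into 4 groups of 6: saline male, oxytocin male, saline female and oxytocin female. Total RNA came from both hemispheres and had an RNA integrity number above 8. The labels give no litter, no dose, and neither the time of day nor the handling before the tissue was taken, and the design text speaks of separate animals. Each of the 24 deposited files has a name that contradicts its label on both sex and treatment, so groups are named throughout as the labels give them. If the file names were right, each comparison of treatments would belong to the other sex with its sign turned. The libraries held 15.9 to 24.3 M estimated reads, and the oxytocin female libraries were the shallowest group, at 17.4 ± 0.888 M reads against 20.2 ± 2.18 M reads in saline females (SD, n = 6 each). Gene IDs other than the 8 could not be matched to symbols, so neither cell type markers of the cortex nor other genes of the activity response are given.

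RefSeq promoters were at hand for 6 of the 8 genes, Egr1, Junb, Nr4a1, Egr2, Dusp1 and Btg2, and not for Fos and Arc. They are described first, and a relation of their motifs to the levels of the members in these animals was not tested. In the 250 bases before the start, on either strand, the CRE core TGACG was found in 6 of 6 promoters, against 18.2% of 33465 RefSeq promoters of the same length. The full CRE TGACGTCA, which contains the core on both strands, was found in Dusp1 and Btg2, against 1.59% of all promoters. The CArG box was found in Egr1 and Egr2, against 1.5%. The Egr site GCGNGGGCG was found in Nr4a1 and Btg2, against 4.29%. The AP-1 site TGANTCA was in 0 of the 6 windows, against 6.34%. Such matches are a description of letters and show no binding.

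The following 4 promoters carry these motifs. Each is printed from 250 bases before the start to the last base before it, with every match to a motif in capitals. The start is that of the RefSeq promoter. For Nr4a1 and Egr2 it lies inside the RefSeq span of the gene, not at its edge. These spans are chr7:134247153-134268044 and chr20:21050149-21055201, so the distances hold for that start only.
Egr2, GRCr8 chr20:21054442-21054691, minus strand: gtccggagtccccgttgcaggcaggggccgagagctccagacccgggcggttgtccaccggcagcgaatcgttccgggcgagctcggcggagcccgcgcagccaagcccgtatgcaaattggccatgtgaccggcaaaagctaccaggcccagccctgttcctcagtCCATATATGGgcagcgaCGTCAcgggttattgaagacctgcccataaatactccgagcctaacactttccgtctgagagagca
Dusp1, GRCr8 chr10:17184603-17184852, plus strand: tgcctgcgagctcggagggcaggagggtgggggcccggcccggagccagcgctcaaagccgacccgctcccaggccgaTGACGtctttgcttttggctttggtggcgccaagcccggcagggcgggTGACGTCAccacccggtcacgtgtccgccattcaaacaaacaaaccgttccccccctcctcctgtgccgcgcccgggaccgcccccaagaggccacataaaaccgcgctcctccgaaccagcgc
Btg2, GRCr8 chr13:48087691-48087940, minus strand: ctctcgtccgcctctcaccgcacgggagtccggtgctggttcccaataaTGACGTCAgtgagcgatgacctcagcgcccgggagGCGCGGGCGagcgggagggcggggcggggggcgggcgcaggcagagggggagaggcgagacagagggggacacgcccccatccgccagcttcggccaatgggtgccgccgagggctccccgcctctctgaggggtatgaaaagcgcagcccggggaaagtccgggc
Nr4a1, GRCr8 chr7:134259888-134260137, plus strand: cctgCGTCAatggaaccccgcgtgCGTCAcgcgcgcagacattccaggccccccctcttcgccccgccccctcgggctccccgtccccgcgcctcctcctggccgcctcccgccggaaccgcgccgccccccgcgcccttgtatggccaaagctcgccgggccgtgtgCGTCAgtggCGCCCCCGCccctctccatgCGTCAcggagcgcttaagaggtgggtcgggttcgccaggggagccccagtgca
Egr2 held 1 CArG box beginning 83 bases before its start and 1 CRE core beginning 66 bases before it. Egr1, with 2 CArG boxes and 2 CRE cores, had 1 of each at these same 2 distances. Dusp1 held its full CRE 124 bases before the start and a further CRE core at 172 bases. In Btg2 the full CRE began 201 bases before the start and the Egr site 166 bases before it. Nr4a1 held no full CRE, but 4 CRE cores, and an Egr site 73 bases before its start.

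All 8 genes were well expressed. Levels between genes are compared as deposited TPM, which corrects for gene length. Egr1 was the most abundant, at 312 ± 82.01 TPM (SD, n = 24), followed by Arc at 196 ± 99.7, Junb at 139 ± 54.04 and Nr4a1 at 127 ± 64.1. Lower in the order were Dusp1 at 96.4 ± 36.3 TPM, Fos at 54.6 ± 23.8, Btg2 at 27.2 ± 12.8 and Egr2 at 17.2 ± 11.02 (SD, n = 24). Egr1 stood above Arc, Dusp1 above Fos, and Fos above Btg2 in 24 of 24 libraries. Arc exceeded Junb in 21, Junb exceeded Nr4a1 in 19, Nr4a1 exceeded Dusp1 in 19, and Btg2 exceeded Egr2 in 22 of the 24. In each of these last 4 pairs the means differed by less than the larger SD. Junb and Nr4a1 were the closest neighbours, with a median ratio of 1.12. The lowest count of any member was 126 reads, for Egr2 in oxytocin female 4 (95% exact Poisson interval 105 to 150 reads, counting error only).

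The following values within a gene are CPM scaled by TMM, which relates the reads of a gene to the library total, given as the lowest, median and highest of 6 libraries. In bulk tissue, fewer cells expressing a gene and less RNA per cell cannot be told apart.

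Fos encodes the transcription factor that joins Jun proteins to form AP-1. It lay at 24.9, 60.95 and 85.1 CPM in saline males and at 17.6, 39.6 and 74.2 CPM in oxytocin males. In females it lay at 35.9, 41.8 and 54.02 CPM after saline and at 14.5, 73.2 and 101 CPM after oxytocin. The groups overlapped in both sexes: oxytocin female 4 was below every other library, while the other 5 oxytocin females were above every saline female. Oxytocin against saline gave a log2 fold change of −0.46 (95% interval −1.25 to 0.32, edgeR adjusted p = 0.721) in labelled males. In labelled females it was 0.59 (95% interval −0.19 to 1.38, edgeR adjusted p = 0.535).

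Junb, an AP-1 partner that also restrains Jun activity, ranged over 65.9, 202 and 255 CPM in saline males and 57.4, 122 and 224 CPM in oxytocin males. In saline females the values were 101, 135 and 179.7 CPM, and in oxytocin females 69.97, 181 and 273 CPM. Its highest library was again oxytocin female 6, and its lowest was oxytocin male 3. For Junb the log2 fold change was −0.40 (95% interval −1.13 to 0.33, edgeR adjusted p = 0.744) in labelled males and 0.35 (95% interval −0.38 to 1.08, edgeR adjusted p = 0.731) in labelled females.

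Egr1 and Egr2 encode zinc finger factors that bind the same GC-rich site, the first widely used as a marker of plasticity and the second also required for myelination in peripheral nerve. Egr1 lay at 380.0, 664 and 830.3 CPM in saline males and 379.9, 473 and 742 CPM in oxytocin males. In saline females Egr1 lay within narrow limits, at 443, 515 and 582 CPM, whereas oxytocin females ranged over 327, 702 and 854 CPM. For Egr1, 5 of 6 oxytocin females exceeded every saline female and the remaining library, oxytocin female 4, lay below all of them. Its log2 fold change was −0.28 (95% interval −0.72 to 0.16, edgeR adjusted p = 0.695) in labelled males and 0.37 (95% interval −0.07 to 0.82, edgeR adjusted p = 0.49) in labelled females.

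Egr2 lay at 14.5, 44.8 and 91.4 CPM in saline males and 9.16, 25.03 and 52.03 CPM in oxytocin males. The values in saline females were 14.8, 20.1 and 40.9 CPM, and those in oxytocin females 6.96, 34.8 and 74.7 CPM. Its highest library, saline male 6, stood 13.1-fold above its lowest, oxytocin female 4, the widest range of the 8 genes. Egr2 had a log2 fold change of −0.78 (95% interval −1.83 to 0.28, edgeR adjusted p = 0.62) in labelled males, and 0.70 (95% interval −0.38 to 1.77, edgeR adjusted p = 0.603) in labelled females.

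Nr4a1, an orphan nuclear receptor induced by calcium entry, lay at 70.3, 269 and 329 CPM in saline males and 50.05, 157 and 349.8 CPM in oxytocin males. Saline females had 78.8, 135 and 263 CPM and oxytocin females 95.5, 221 and 391 CPM. Both treatments spanned most of the range of the gene in males, and the groups overlapped in both sexes. The log2 fold change was −0.33 (95% interval −1.28 to 0.62, edgeR adjusted p = 0.86) in labelled males and 0.64 (95% interval −0.31 to 1.59, edgeR adjusted p = 0.589) in labelled females.

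Arc, whose protein acts at the synapse and promotes removal of AMPA receptors, lay at 65.3, 485 and 631 CPM in saline males and 76.4, 302 and 649 CPM in oxytocin males. In females it lay at 186, 319 and 446 CPM with saline and 152, 469.8 and 712 CPM with oxytocin. Single animals of 1 group differed more for Arc than the group means did: saline male 4 was the lowest of all libraries and saline male 6, at 631 CPM, was among the highest. Its log2 fold change was −0.16 (95% interval −1.23 to 0.91, edgeR adjusted p = 0.952) in labelled males and 0.49 (95% interval −0.58 to 1.57, edgeR adjusted p = 0.742) in labelled females.

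Dusp1, a phosphatase that switches off MAP kinases and so limits the induction of these genes, lay at 51.4, 127 and 146 CPM in saline males and 38.9, 91.6 and 173 CPM in oxytocin males. Among females the values were 71.3, 91.4 and 124 CPM after saline and 56.9, 131 and 196 CPM after oxytocin. The log2 fold change of Dusp1 was −0.08 (95% interval −0.78 to 0.61, edgeR adjusted p = 0.96) in labelled males and 0.46 (95% interval −0.23 to 1.16, edgeR adjusted p = 0.593) in labelled females.

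Btg2, an antiproliferative protein that promotes deadenylation of mRNA, lay at 12.8, 37.2 and 84.6 CPM in saline males and 12.5, 35.95 and 49.7 CPM in oxytocin males. Saline females had 23.1, 38.2 and 51.2 CPM of this transcript and oxytocin females 12.6, 57.8 and 71.6 CPM. In this gene saline male 5 stood alone at the top of its group, and oxytocin female 4 alone at the bottom of its own. The log2 fold change was −0.22 (95% interval −1.07 to 0.63, edgeR adjusted p = 0.901) in labelled males and 0.47 (95% interval −0.37 to 1.31, edgeR adjusted p = 0.666) in labelled females.

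**Figure D1:**
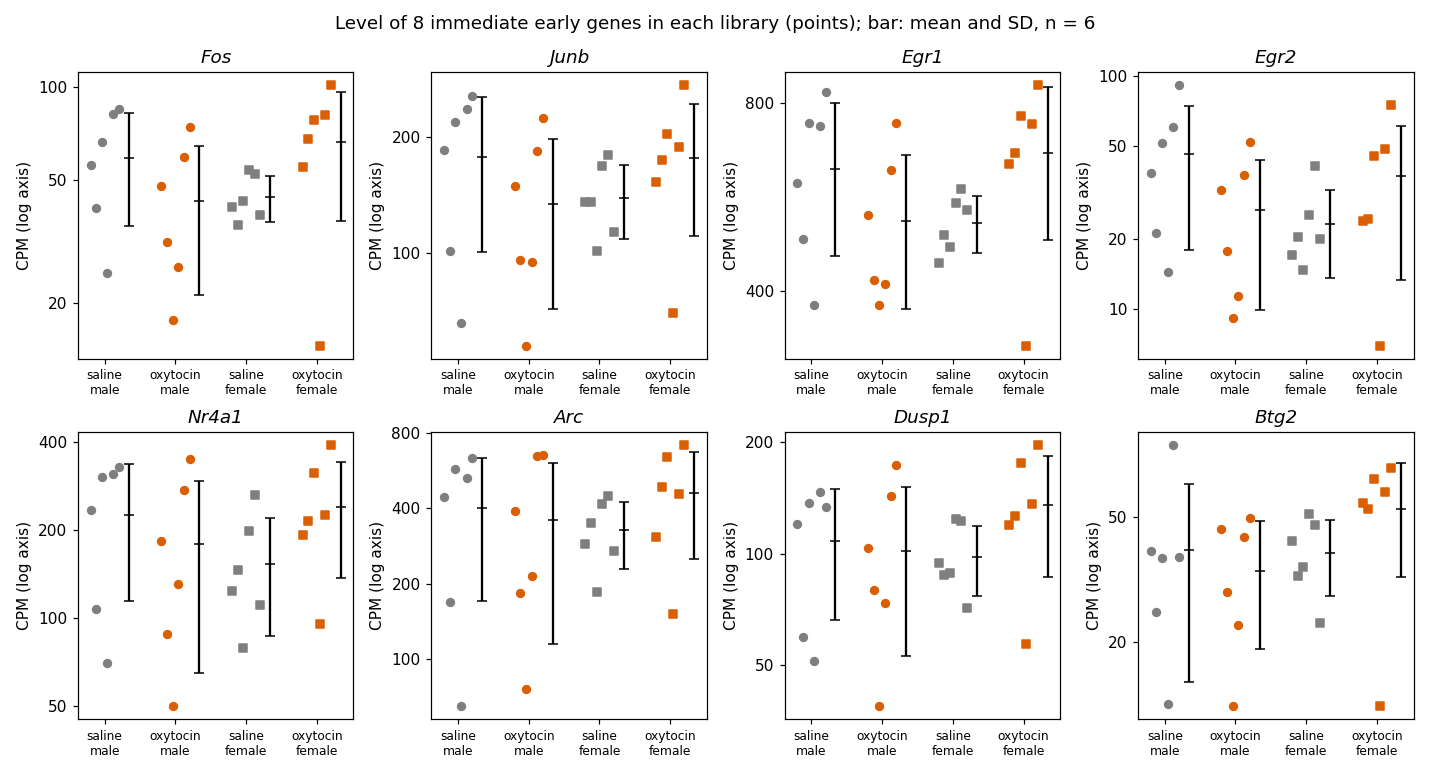
CPM of each gene in every library (points, log axis) by labelled group, with the mean and SD of 6 libraries beside the points. The groups overlap in every panel, and oxytocin female 4 lies far below the other oxytocin females.

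Whether induction with oxytocin changed these genes was the question of the treatment comparisons. No member was called in either sex at an edgeR adjusted p of at most 0.05, the count being 0 of 8 in labelled males and 0 of 8 in labelled females. Over all 14930 tested genes the calls were 0.161% in labelled males and 0.0067% in labelled females, so 0 of 8 lies near the background. The share in labelled males moved with single libraries: it was 0% without any one of saline males 1, 2, 3, 5 and 6 and oxytocin males 1, 3 and 4, and it was 0.701% without saline male 4 and 0.687% without saline female 2. In labelled females it reached 0.0400% without saline female 6. The members stayed at 0 of 8 called in each of these fits. At an unadjusted p under 0.05 the count was also 0 of 8 in each sex, against 11.3% and 12.4% of all tested genes; without oxytocin female 4 it was 2 of 8 in labelled females, Fos and Egr1, against 12.1% of all tested genes. DESeq2 called 0 of 8 in each sex, against 1.09% in labelled males and 0.255% in labelled females of the genes it gave an adjusted p, and limma with sample weights called 0 of 8, against 0.81% and 0.0067%. At an unadjusted p under 0.05 both tools had 0 of 8 in each sex, where DESeq2 had 7.99% and 8.79% of all genes and limma 13.9% and 12%. Libraries of the treatments did not separate for any member (0 of 8 in each sex), which they did for 1.19% of all tested genes in labelled males and 0.73% in labelled females.

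All 8 estimates were negative in labelled males, with a median log2 fold change of −0.30, and all 8 were positive in labelled females, with a median of 0.48. The median over all tested genes was 0.00 in each. With 1 library left out the male median ran from −0.51 without oxytocin male 6 and −0.46 without saline male 4 to −0.17 without oxytocin male 3, and the female median from 0.35 to 0.67. The 8 genes moved together from animal to animal, so their shared sign does not count as 8 separate observations. Leaving out 1 library turned 3 of the male estimates above 0: Arc reached 0.02 without saline male 6 and 0.05 without oxytocin male 3, Dusp1 0.03 without saline male 5 and 0.09 without oxytocin male 3, and Btg2 0.16 without saline male 5. In labelled females every estimate stayed above 0 with any 1 library left out, and without oxytocin female 4 those of Fos and Egr1 were 0.80 and 0.51 (edgeR adjusted p = 0.317 and 0.272). The standard errors ran from 0.21 for Egr1 to 0.51 for Arc in labelled males, against a median of 0.08 over all tested genes. In labelled females the 95% interval of Fos ran from 0.877-fold to 2.60-fold and that of Egr1 from 0.952-fold to 1.76-fold.

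Whether the sexes differed in their response was tested with the interaction, the log2 fold change in labelled males minus that in labelled females. It was negative for all 8 genes and called for 0 of 8, with edgeR adjusted p between 0.660 and 0.877; no gene was called among all 14930 (0%). Egr1 had the smallest unadjusted p in edgeR, 0.0425, with a difference of −0.65 (SE 0.30, adjusted p = 0.660), and it was the only member under 0.05, against 7.29% of all tested genes. Egr2 had the largest estimate, −1.47 (SE 0.72, adjusted p = 0.685), followed by Fos at −1.06 (SE 0.53, adjusted p = 0.689). DESeq2 called 0 of 8, against 0.00907% of all genes, and had Fos, Egr1 and Egr2 at an unadjusted p under 0.05, against 5.38%. Limma with sample weights called 0 of 8, against 0%, and had Egr1 under 0.05, against 8.07%. With the replicate number as a block edgeR called 0 of 8, against 0.0067%, and had Egr1 and Egr2 there, against 7.49%. With 1 library left out the count under 0.05 was 0 of 8 in 13 of 24 fits. It was 3 of 8 without saline male 4 (against 8.19% of all tested genes), oxytocin male 5 (6.92%), oxytocin male 6 (7.07%) or oxytocin female 4 (7.79%). The members moved together from animal to animal, so these 3 do not count as 3 separate observations. In all 24 fits 0 of 8 were called, against 0% of all tested genes. If both labels of every library were turned as the file names give them, this difference would keep its value and its sign, because the sexes and the treatments would change places together. Under either naming the estimates of the members were thus higher with oxytocin in females and lower in males, without passing the test.

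Averaged over the labelled sexes, the opposite estimates nearly cancelled. The median log2 fold change of the members was 0.10, from −0.04 for Egr2 to 0.19 for Dusp1, and 0 of 8 were called (edgeR adjusted p 0.743 to 0.977), against 0.362% of all tested genes. Leaving out 1 library moved this median from −0.01 without oxytocin male 6 to 0.20, and it moved the calls over all genes, which were 54 with every library, to 9 (saline male 2 left out) or 333 (saline female 2 left out). Between labelled males and labelled females the median was −0.03, from −0.31 for Btg2 to 0.26 for Egr2, and again 0 of 8 were called (edgeR adjusted p 0.755 to 0.991), against 0.221%. This median ran from −0.14 without oxytocin male 6 to 0.04 without saline male 4, and the 33 calls over all genes reached 60 without saline female 6. DESeq2 and limma called 0 of 8 in both comparisons too, against 2.52% and 1.41% of the genes in the average and 0.665% and 0.462% between the labelled sexes. At an unadjusted p under 0.05 the count was 0 of 8 in both comparisons, in edgeR, DESeq2 and limma alike, against 16% of all tested genes in the average and 9.99% between the labelled sexes in edgeR, 11.4% and 7.18% in DESeq2, and 18.1% and 13.6% in limma.

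**Figure D2:**
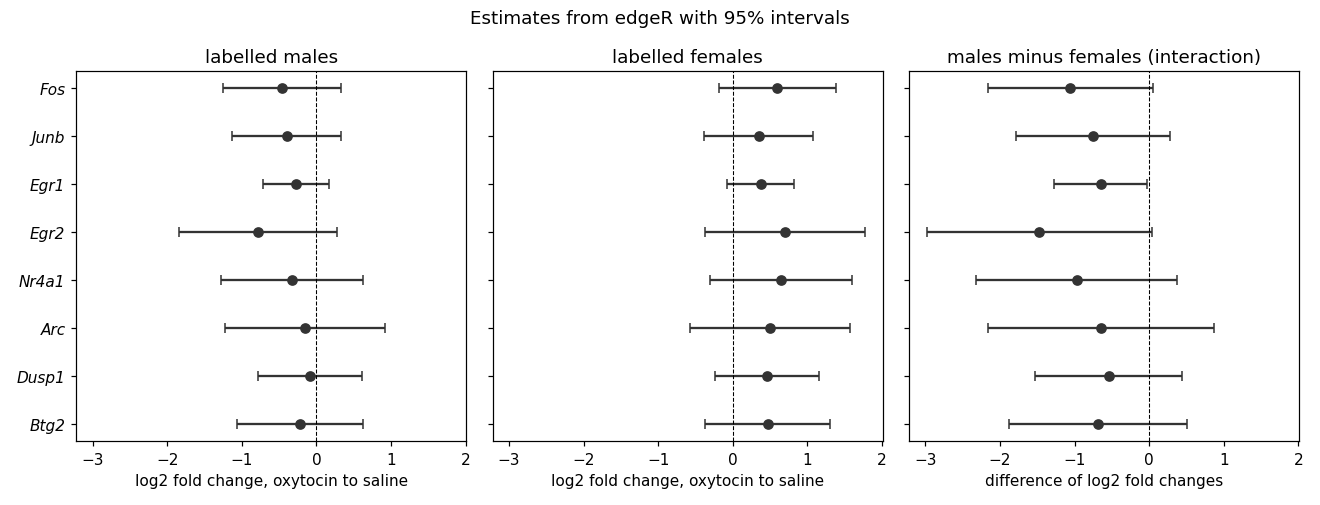
Log2 fold change of oxytocin to saline in labelled males (left) and labelled females (middle), and their difference (right), as edgeR estimates with 95% intervals. All 16 intervals within a sex include 0, and in the difference the interval of Egr1 alone lies below 0.

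The members varied widely between animals of 1 group. The within-group SD of log2 CPM was 1.002 for Arc, 0.96 for Egr2, 0.84 for Nr4a1, 0.78 for Btg2 and 0.73 for Fos. It was 0.65 for Junb, 0.62 for Dusp1 and 0.39 for Egr1, the steadiest of the 8. The median over all 14930 tested genes was 0.14. The members stood at a median percentile of 97.6 among tested genes, from 87.3 for Egr1 to 98.6 for Arc. Low counts raise this SD in weakly expressed genes, so the members were also set against the 5492 genes with a mean log2 CPM of at least 5. In that company 7 members, all but Egr2, had a median percentile of 99.9 and none was under 99.0. From the lowest to the highest of the 24 libraries, Arc differed 10.9-fold, Nr4a1 7.81-fold, Fos 6.99-fold and Egr1 2.61-fold in CPM.

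**Figure D3:**
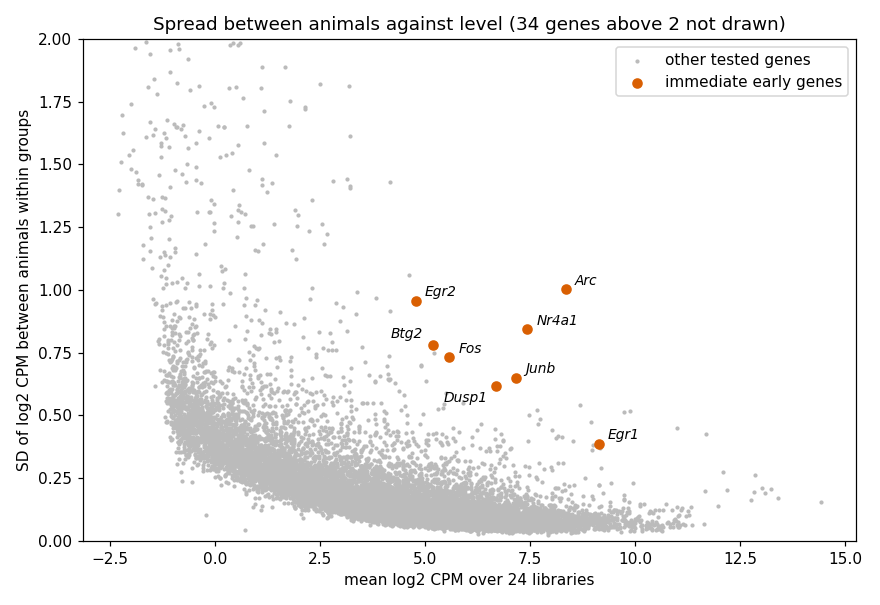
SD of log2 CPM between animals within groups (vertical axis) against mean log2 CPM (horizontal axis) for 14930 tested genes, with the 8 immediate early genes in orange and 34 genes with an SD above 2 not drawn. At their levels the members lie near the upper edge of the cloud, Arc highest at 1.002 and Egr1 lowest at 0.39.

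The same animals were high or low for nearly all members. Oxytocin male 3 was among the 3 lowest of 24 libraries for 8 of 8 genes, and saline male 4 and oxytocin female 4 for 7 of 8 each. At the other end oxytocin female 6 was the highest library for 6 genes and among the 3 highest for 8 of 8. The low libraries thus came from 3 of the 4 groups. Averaged over the members, the deviation from the group mean was −1.49 on the log2 scale in oxytocin female 4, −1.32 in saline male 4 and −1.22 in oxytocin male 3. The largest mean deviation upward was 0.96, in oxytocin male 6.

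**Figure D4:**
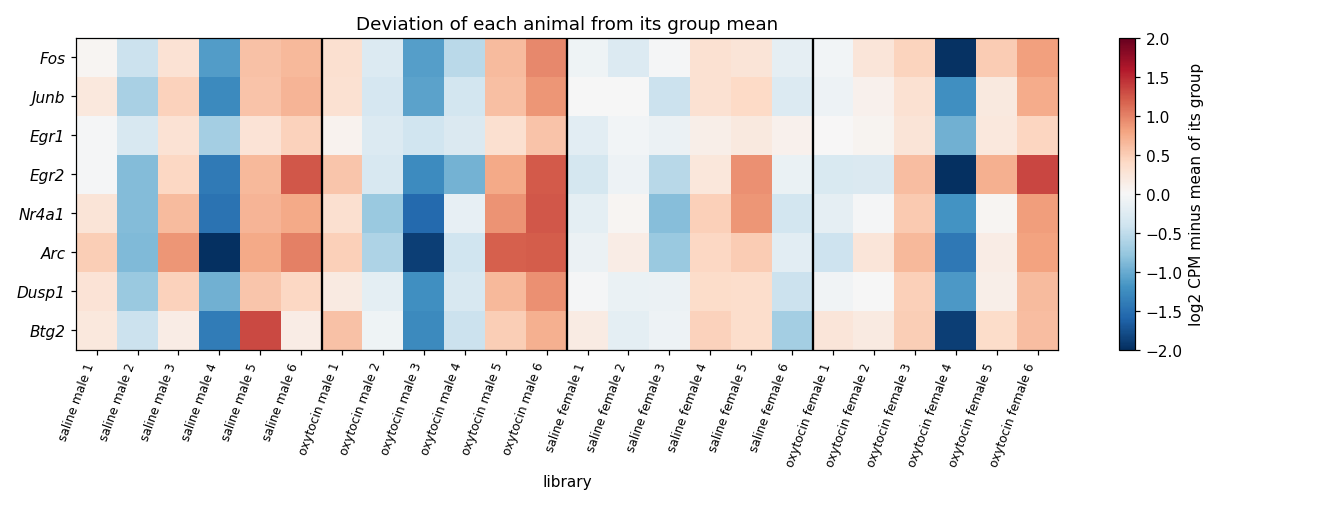
Log2 CPM minus the mean of its group for the 8 genes (rows) in the 24 libraries (columns), with vertical lines between groups and colours cut at −2 and 2. Columns are mostly of 1 colour: saline male 4, oxytocin male 3 and oxytocin female 4 are low in nearly every row, and the saline female columns are pale.

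This covariation was measured as the correlation of log2 CPM across the 24 animals after the group means had been removed, for the 28 pairs of members. Pearson's r had a median of 0.923 and ran from 0.839 for Nr4a1 and Btg2 to 0.977 for Arc and Junb. Spearman's rho had a median of 0.930 and ran from 0.773 to 0.980. All 28 pairs passed in a two-sided permutation test within groups, with adjusted p of at most 6e-05 for r and at most 4e-05 for rho, where 1e-05 is the smallest value that 100000 permutations can give. Without the 2 libraries farthest from the median of the first gene of a pair, r ran from 0.706 for Egr1 and Btg2 to 0.973 for Junb and Nr4a1. The r of the members with the 14922 other tested genes had a median of 0.00143, and 0.142% of these values reached the lowest r between members. A single component held 93.1% of the standardized variance of the 8 genes between animals.

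Within this common movement some genes kept closer company than others. Arc, Junb and Nr4a1 were joined by r of 0.971 to 0.977, Fos and Egr1 by 0.965, Egr1 and Egr2 by 0.960, and Junb and Dusp1 by 0.973. Junb followed the mean of the other 7 most closely, with r = 0.992 over 24 libraries, and left a residual SD of 0.08 on the log2 scale. Btg2 followed it least closely, with r = 0.902 and a residual SD of 0.34. The largest departure of Btg2 was in saline male 5, where it lay 0.76 above the line set by the other 7 genes.

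The low libraries were not low by the same proportion in every member. Oxytocin female 4 had 14.5 CPM of Fos and 152 CPM of Arc, whereas saline male 4 had 24.9 CPM of Fos and 65.3 CPM of Arc. In oxytocin female 4 Fos lay at −0.55 from the line set by the other 7 genes on the log2 scale, while Arc lay 0.68 and Nr4a1 0.57 above their own lines. In oxytocin male 3 Egr1 lay 0.24 above its line and Dusp1 at −0.26 from its own.

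The spread between animals was also taken group by group, and its difference between groups was not tested. The median within-group SD of the members was 0.84 in saline males, 0.77 in oxytocin males, 0.76 in oxytocin females and 0.37 in saline females. All 8 members had their smallest SD in saline females, which held for 17.4% of all tested genes, and the median SD over all tested genes was 0.15 in saline females and 0.13 in each of the other groups. Because the members moved together from animal to animal, this does not count as 8 separate observations. In saline females the SD was 0.24 for Fos, 0.15 for Egr1 and 0.62 for Nr4a1. In oxytocin females it was 1.01 for Fos, 0.49 for Egr1 and 0.70 for Nr4a1. That of oxytocin females rested on 1 library: without oxytocin female 4 the median SD there was 0.32, the SD of Fos was 0.33, and 5 of 8 members had their smallest SD in saline females. Leaving out any 1 other library kept the count at 8 of 8, and the median SD of saline males and oxytocin males at 0.59 or more. The 17.4% of all tested genes was taken with every library, and no such share was taken with 1 left out.

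Correlations were then taken within each group of 6. The median r over the 28 pairs was 0.969 in saline males, 0.959 in oxytocin males and 0.967 in oxytocin females, with lowest values of 0.780, 0.857 and 0.913. Saline females had a median of 0.701 and a range from 0.169 for Egr1 and Btg2 to 0.978 for Junb and Nr4a1. The difference in r between groups was not tested. The members also had their smallest spread in saline females, with a median SD of 0.37 against 0.76 to 0.84 in the other groups. Even there Arc kept r of 0.957 with Junb and 0.972 with Nr4a1, while Fos kept 0.518 with Arc. Leaving out 1 library at a time moved the median between 0.546 and 0.833 in saline females and kept it at 0.926 or more in the other 3 groups. The lowest r in saline females ran from −0.108 without saline female 5 to 0.481 without saline female 6.

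**Figure D5:**
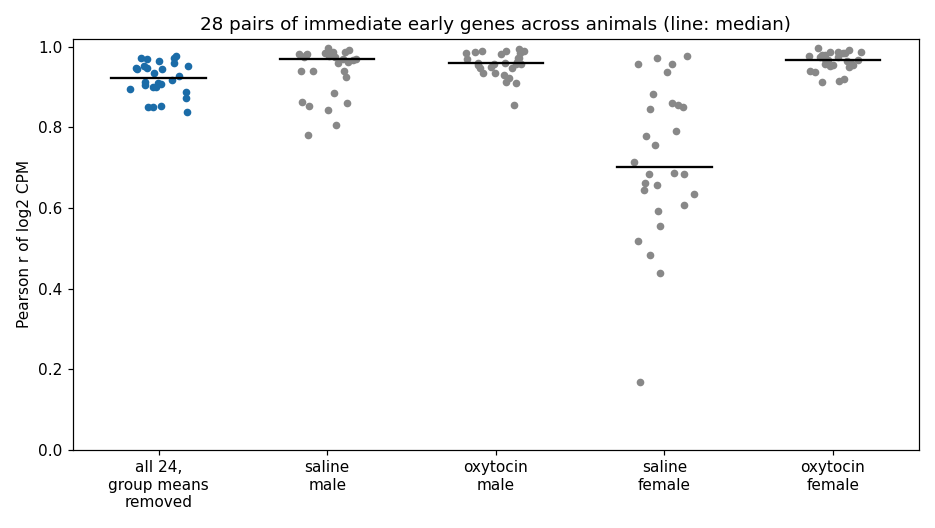
Pearson's r of log2 CPM for the 28 pairs of members (points) over all 24 libraries with group means removed and within each labelled group of 6, with the median as a line. Medians are 0.923 overall and 0.701 in saline females, where the lowest pair is at 0.169.

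Library depth was set beside the members within groups. No relation passed the test: r of the members with the log2 library total lay between −0.216 for Egr2 and −0.055 for Arc over 24 libraries, with permutation p adjusted over 8 genes between 0.736 and 0.827. Spearman's rho lay between −0.187 and −0.010, with adjusted p from 0.918 to 0.969. Without the 2 libraries of most extreme depth r lay between −0.368 and −0.229.

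Few other genes shared the pattern. Over the same 24 libraries, the members had between 30 (Btg2) and 50 (Egr1) tested genes at r of 0.8 or more, 7 of them the other members in each case, while the median tested gene had 0. These counts stood at percentiles 92.8 (Btg2) to 94.6 (Egr1) among tested genes, so genes outside the set also had as many partners or more. By median r with the 8 members, 33 of 14922 other tested genes reached 0.8, 150 reached 0.6, and 22 lay at −0.6 or below. ENSRNOG00000000956 was most like them, with a median r of 0.939 and 6.35, 10.4 and 20.2 CPM as its lowest, median and highest library. ENSRNOG00000016299 followed with a median r of 0.934 and 6.88, 15.7 and 39.6 CPM. The most opposite were ENSRNOG00000027087, with a median r of −0.744 and 14.8 to 20.1 CPM, and ENSRNOG00000005763, with −0.714 and 38.4 to 45.7 CPM. The tables do not pair these 4 IDs with symbols. These correlations share libraries and scaling and are given without a test.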

How the data were processed

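Libraries were made from oligo-dT selected RNA, per the labels' protocols. The rat assembly Rnor_6.0 and the tools bcl2fastq and DRAGEN are named in the submitters' processing notes; tool versions, gene annotation and strandedness were not stated there. The tables deposited by the authors hold, per the file headers, lengths, TPM and estimated counts per gene, and 7.42% to 8.38% of the estimated counts in a library were not whole. TPM served only for levels between genes and as an alternative.

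Estimated counts were rounded and tested with edgeR 4.0.16 in R 4.3.3: filterByExpr (minimum count 10, minimum total 15), TMM factors (0.971 to 1.03), 1 mean per group over all 24 libraries, and quasi-likelihood tests with robust dispersion, adjusted by Benjamini-Hochberg over 14930 genes. All 8 members passed the filter, each with 126 or more reads in every library. Standard errors were derived from the F statistic. Log2 CPM for spread and correlation used a prior count of 2. Alternatives used RLE factors, other filters, length offsets, the replicate number as a block, DESeq2 1.42.0, limma 3.58.1, 1 labelled sex alone and each library left out. The tests set each difference against the spread between these animals, taken as independent. The labels give no litters. Animals sharing a litter could make the p-values too small or, for comparisons within litters, too large.

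The symbols of the 8 IDs came with the rule that chose them; the RefSeq table (GRCr8) carried an Ensembl ID in 0 of 47357 rows, so the lists of other activity-regulated genes, upstream signalling and cell type markers could not be used (0 genes matched). The members and lists were chosen with earlier results of these data known. The text names the 8 members whatever their values, and the 2 highest and 2 lowest IDs by median r with them.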

Additional observations from a re-analysis of the deposited data

Results flagged for a closer look

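In 2 of 32 sets of 6 libraries (8 genes in 4 groups), 1 library stood far from the other 5 relative to the range of its group. Chance gives about 1 in 20, or 1.6 of 32, and the 8 genes are not independent of each other. Btg2 was at 84.6 CPM in saline male 5, with the next library at 38.9 CPM. Btg2 was at 12.6 CPM in oxytocin female 4, with the next at 53.1 CPM.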

How the results depend on the processing

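The count of called members was 0 of 8 in each of the 5 comparisons under the 31 alternatives fitted to all of them, and in each sex when 1 labelled sex was fitted alone, with a lowest adjusted p of 0.272 (Egr1 in labelled females, edgeR without oxytocin female 4). With the replicate number as a block it was 0 of 8 as well, with median log2 fold changes of −0.32 in labelled males, 0.36 in labelled females and −0.61 in the interaction. The calls over all genes moved more: in labelled males they were 24 in edgeR, 9 with the replicate block, 116 with 1 sex alone, 121 in limma and 157 in DESeq2. In labelled females they were 1 in edgeR, 0 with 1 sex alone and 42 in DESeq2, and in the interaction 0, 1 with the replicate block and 2 in DESeq2. In the average over sexes they were 54 in edgeR, 211 in limma and 351 in DESeq2, and between the labelled sexes 33, 69 and 104. The members' median was 0.05 with the replicate block and 0.03 in limma in the average over sexes, and −0.14 and −0.20 between the labelled sexes. Same-numbered libraries of 2 groups had a median r from −0.00135 to 0.0596 over all genes. For libraries of different number it was −0.0184 to 0.00859. The widest gap was in saline females and oxytocin females, at 0.0596 for the same number against −0.0161. Only in oxytocin males and saline females was the same-number median the lower, at −0.00135 against 0.00859. The difference was not tested, and values this small do not decide whether the numbers pair animals. Of 24 fold changes followed (8 genes in each sex and in the interaction), none changed sign in 184 values under alternatives that kept all libraries of the comparison, and 5 of 576 did when 1 library was left out, all in labelled males: Arc (−0.41 to 0.055 over left-out libraries; 0.018 without saline male 6, 0.055 without oxytocin male 3), Dusp1 (−0.30 to 0.088; 0.026 without saline male 5, 0.088 without oxytocin male 3) and Btg2 (−0.40 to 0.16; 0.16 without saline male 5). The median r between members was 0.911 to 0.936 and their median SD percentile 96.3 to 97.8 with 1 library left out.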
